A study of Mus musculus with 10 samples.

Results

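The mitochondrial carriers of the solute carrier family 25 (Slc25) were followed across 4 RNA-seq libraries of cultured mouse brown preadipocytes taken through adipogenesis. Members were all gene symbols made of Slc25a and a number, with 1 carrier left out, and for each symbol the listed transcript with the highest mean RPKM (reads per kilobase of transcript, scaled to library size) over the 4 libraries was used. This gave 43 genes among the 22835 gene names of the tables, and 7 of the 43 had more than 1 transcript listed. Cells came from interscapular brown fat of newborn mice and were immortalised with SV40 large T antigen. The LSL-K4M line (LSL-K4M;CreER) and the Mll3/4SET line (Mll3f/f;Mll4SETf/f;CreER) both carry CreER, a recombinase that 4-hydroxytamoxifen (4OHT) activates. With 4OHT the first line is built to switch on histone H3.3 with lysine 4 changed to methionine, and the second to lose floxed parts of Mll3 and of the Mll4 SET domain. Each line was sequenced once as mock and once after 4OHT, at day 7, after induction with insulin (0.02 μM), T3 (1 nM), IBMX (0.5 mM), dexamethasone (2 μg/ml) and indomethacin (0.125 mM). The titles of both 4OHT libraries name day 0 while their stage labels name day 7. The deposited counts and RPKM, which hold mock and 4OHT of a line together, are also labelled day 7. Day 7 was used here, but with this conflict the day of those libraries is in doubt. No RNA library of CreER cells without the engineered alleles was analysed here, so effects of 4OHT or of active CreER and effects of the alleles cannot be told apart.

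Carriers of this family sit mostly in the inner mitochondrial membrane, where each exchanges or imports a small set of solutes such as nucleotides, phosphate, carboxylates, amino acids, cofactors or iron. They share a fold built from repeated pairs of membrane helices, and they are made in the cytosol and inserted through a dedicated import route. In fat cells the citrate carrier supplies the cytosol with carbon for fatty acid synthesis. The uncoupling proteins of brown fat belong to the same family under other gene names.

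Summed over 1 transcript per gene, the libraries held between 15209607 and 16719658 reads, of which between 24403 and 50096 fell on the Slc25 members. With 1 library in each group there was no replicate, which leaves every difference without a replicate check or a p-value across libraries. Intervals beside fold values are exact 95% intervals of the reads that cover counting error only. Levels of 11 general adipocyte markers summed to 6764 RPKM in the mock library of LSL-K4M and 1862 with 4OHT, and to 7437 and 77.2 RPKM in the Mll3/4SET libraries. Brown adipocyte markers, 8 genes with Ucp1 among them, summed to 86.5 and 13.4 RPKM and to 89.9 and 4.77 RPKM, so the label of mature adipocytes had far less marker support in the 4OHT libraries. Smooth muscle markers, 6 genes, were higher with 4OHT, summing to 417 and 2045 RPKM and to 229.5 and 1061 RPKM. The 4 preadipocyte markers summed to 331 and 255 RPKM and to 369 and 138 RPKM, sums that hid a split. In LSL-K4M 2 of them were lower with 4OHT and 2 higher, with Dlk1 at 10.3 RPKM in mock and 26.2 with 4OHT. In Mll3/4SET 3 were lower and Dlk1 was higher, at 7.79 and 11.0 RPKM. The 7 skeletal muscle markers summed to at most 11.4 RPKM in any library, with Myod1, Myog, Myf5 and Myh1 at 0 reads. Of these markers Acta1 was higher with 4OHT, at 3.33 and 10.9 RPKM and at 1.47 and 4.76 RPKM. Mb was lower, at 5.35 and 0.453 RPKM and at 0.808 and 0.0437 RPKM. The 6 macrophage and leukocyte markers summed to at most 5.59 RPKM. The 4 endothelial markers summed to at most 5.49 RPKM, with Cdh5 at 0 reads. Tek made most of these sums and was higher with 4OHT, at 1.03 and 1.96 RPKM and at 3.05 and 5.44 RPKM. Kdr was lower, at 0.655 and 0.128 RPKM and at 0.0990 and 0.0508 RPKM. These marker levels differed in the same comparisons as the carriers below, but not by like amounts. The adipocyte marker sums differed more in Mll3/4SET than in LSL-K4M. The summed carrier level was 1.56 times less with 4OHT in LSL-K4M and 1.27 times less in Mll3/4SET. The part of the marker levels in the carrier differences was not tested. In bulk cultures, fewer fat cells and less RNA per fat cell cannot be told apart.

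The family as a whole was lower with 4OHT in both lines, and a few carriers made most of the difference. The RPKM of the 43 members summed to 1228 in LSL-K4M mock and 787 with 4OHT, 1.56 times less, and to 799 and 631 in Mll3/4SET, 1.27 times less. Without Slc25a1 the sums were 941 and 700.0 RPKM for LSL-K4M and 707 and 599.9 RPKM for Mll3/4SET. Most of the family's level came from few genes. The 6 members with the highest mean RPKM, which were Slc25a4, Slc25a3, Slc25a1, Slc25a39, Slc25a5 and Slc25a11, held between 69.3% and 73.8% of it in each library. Slc25a1 alone held 23.4% of the summed RPKM in the mock library of LSL-K4M and 11.1% with 4OHT. Slc25a4 went the other way, from 13.3% to 26.4%.

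**Figure D1:**
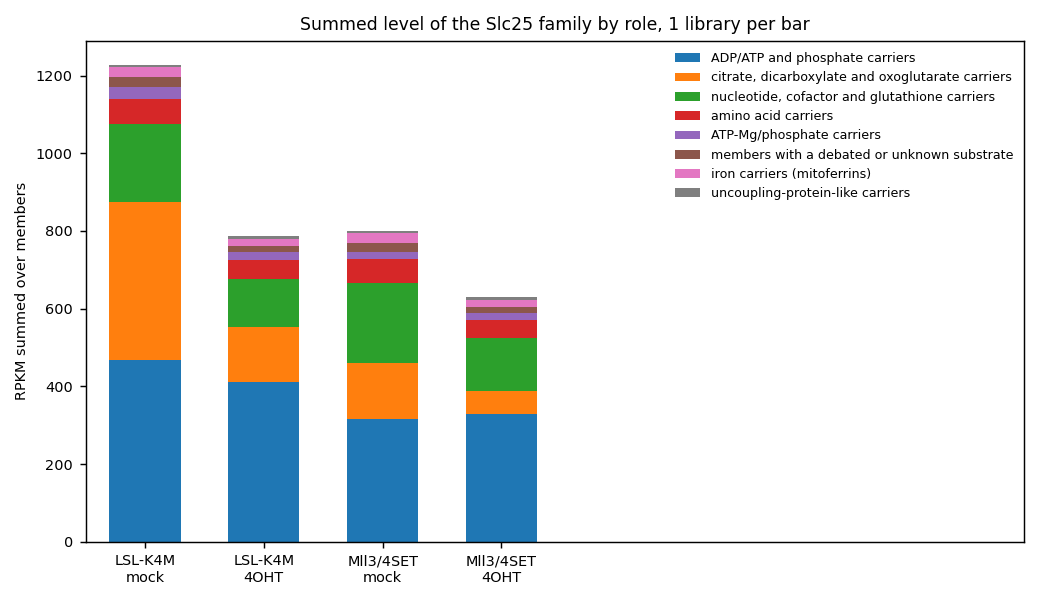
RPKM summed over Slc25 members in each of the 4 libraries (bars start at 0, 1 library per bar), with colours for the roles of the carriers. The citrate, dicarboxylate and oxoglutarate group was 407 RPKM in the mock library of LSL-K4M and 140.3 with 4OHT, and 146 and 58.9 in Mll3/4SET, while the ADP/ATP and phosphate group stayed between 315 and 469 RPKM.

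A carrier was counted as lower or higher when log2(RPKM + 1) differed by at least 2-fold, among genes whose higher library of the line reached 1 RPKM, a scale that understates the difference of weakly expressed genes. In LSL-K4M 33 members were measured, 5 of them were lower with 4OHT (15.2%, against 6.19% of all 12179 measured genes) and 0 were higher (against 5.26%). In Mll3/4SET 34 were measured, 4 were lower (11.8%, against 7.41% of 12184 genes) and 1 was higher (2.94%, against 5.18%). Median log2 differences of the measured members were -0.41 in LSL-K4M and -0.25 in Mll3/4SET, beside 0.10 and 0.12 for all measured genes. With no filter on low values the member medians were -0.33 and -0.20, beside 0.04 and 0.05 for all genes with reads in the line. When libraries were scaled by the median ratio of counts, the calls were 8 lower and 0 higher in LSL-K4M and 5 lower and 0 higher in Mll3/4SET. Of all genes, 7.30% were then lower and 4.14% higher in the LSL-K4M line, and 8.37% and 3.83% in the other. That scaling moved the median of all measured genes from 0.10 to 0.01 and from 0.12 to 0.01. Of the measured members, Slc25a13, Slc25a34 and Slc25a47 in LSL-K4M and Slc25a13, Slc25a43 and Slc25a45 in Mll3/4SET reached 1 RPKM in only 1 library of the line, so their inclusion depended on the library in which they were high. Slc25a2, Slc25a18, Slc25a21, Slc25a29, Slc25a31, Slc25a41 and Slc25a48 were under 1 RPKM in every library.

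**Figure D2:**
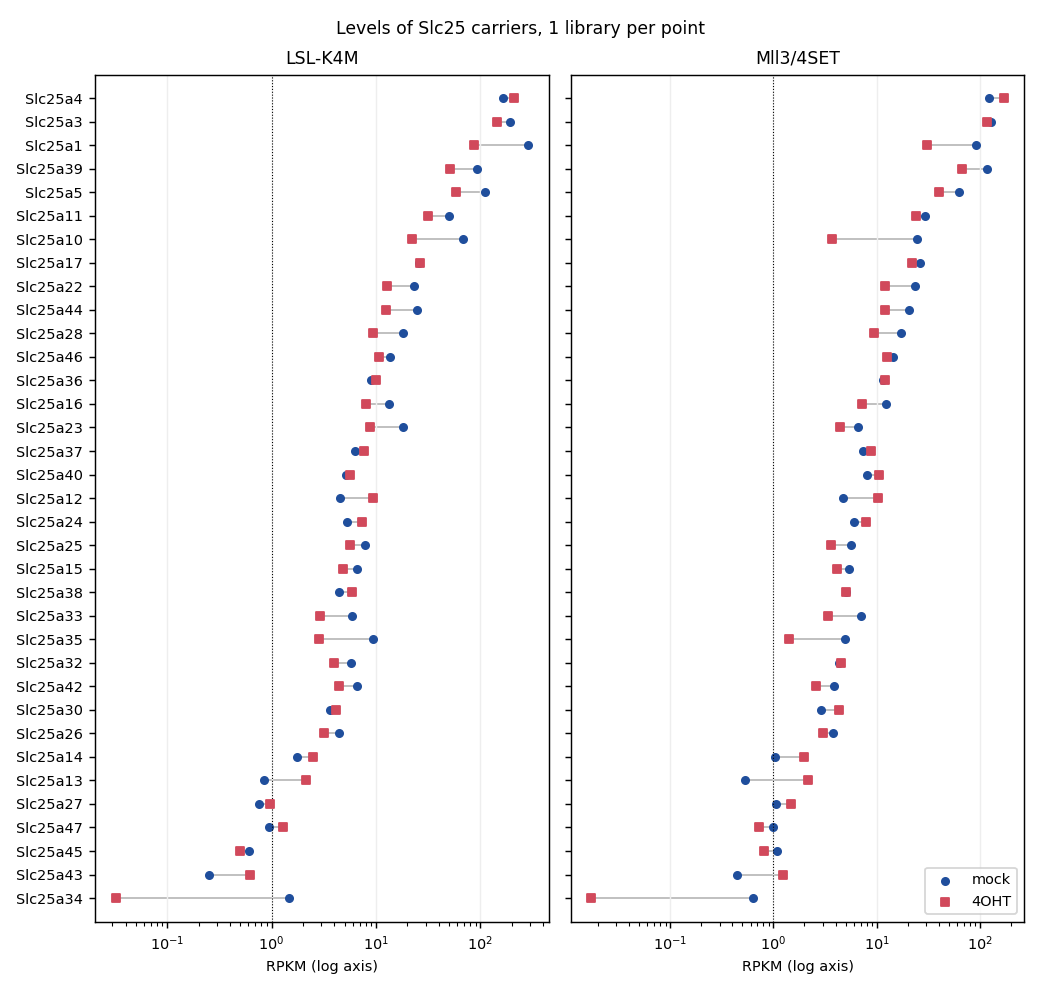
RPKM (log axis) of 35 Slc25 members at 1 RPKM or more in any library, ordered by mean level, in mock (blue circles) and 4OHT (red squares) libraries of each line, 1 library per point, with 1 RPKM as a dotted line. Slc25a1, Slc25a10 and Slc25a35 were lower with 4OHT in both lines by more than 2-fold, while Slc25a12 and Slc25a13 were higher.

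The carriers of citrate and dicarboxylates had the largest differences among abundant members. Slc25a1, the citrate carrier that exports citrate for fatty acid and sterol synthesis, was at 288 RPKM in the mock library of LSL-K4M and 87.1 with 4OHT, and at 91.8 and 30.8 RPKM in Mll3/4SET mock and 4OHT. It was thus 3.30-fold lower (3.17 to 3.43) in LSL-K4M and 2.98-fold lower (2.78 to 3.19) in Mll3/4SET, and the Mll3/4SET mock value was close to that of LSL-K4M with 4OHT, although the tables of the lines were normalised separately. Slc25a10, the dicarboxylate carrier, which exchanges malate and succinate for phosphate, was at 68.9 and 21.9 RPKM in the LSL-K4M pair and at 24.5 and 3.72 RPKM in Mll3/4SET. Its difference was 3.14-fold lower (2.99 to 3.31) in LSL-K4M and 6.58-fold lower (5.85 to 7.42) in Mll3/4SET, and these counting intervals did not overlap. Slc25a11, the oxoglutarate and malate carrier of the malate-aspartate shuttle, was at 50.1 and 31.2 RPKM and at 29.6 and 24.3 RPKM. It stayed under the 2-fold limit, at 1.61-fold lower (1.50 to 1.72) and 1.22-fold lower (1.12 to 1.33). Slc25a21, a carrier of longer oxodicarboxylates, had at most 5 reads in any library.

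The promoters of Slc25a1 and Slc25a10 are shown because these carriers of citrate and of dicarboxylates were lower together in both lines. Each sequence runs from 250 bases before to 50 bases after the start of the gene and comes from RefSeq on build GRCm38.p6, at chr16:17928170-17928469 on the minus strand and chr11:120491587-120491886 on the plus strand. Capitals mark matches, on either strand, to CCAAT (the NF-Y box), CACGTG (an E-box), GGGCGG (the GC box of SP factors) or AAGGTCA (a nuclear receptor half-site), and none of these motifs contains another.
Slc25a1: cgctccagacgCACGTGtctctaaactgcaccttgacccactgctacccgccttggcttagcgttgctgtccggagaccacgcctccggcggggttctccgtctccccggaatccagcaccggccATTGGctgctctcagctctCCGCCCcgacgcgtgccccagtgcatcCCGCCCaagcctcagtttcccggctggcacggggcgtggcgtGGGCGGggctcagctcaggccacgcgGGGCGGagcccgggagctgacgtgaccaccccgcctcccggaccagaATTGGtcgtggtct
Slc25a10: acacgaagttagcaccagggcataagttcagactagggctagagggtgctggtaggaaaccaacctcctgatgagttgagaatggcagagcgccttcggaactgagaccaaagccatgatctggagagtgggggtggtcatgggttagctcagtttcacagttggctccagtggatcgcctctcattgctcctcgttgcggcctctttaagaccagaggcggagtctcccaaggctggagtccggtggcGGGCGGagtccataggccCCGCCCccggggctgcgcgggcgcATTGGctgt
The Slc25a1 window held 2 CCAAT, 1 CACGTG and 4 GGGCGG matches at a GC content of 69.3%, and the Slc25a10 window held 1 CCAAT and 2 GGGCGG matches at 59.7%. Promoters were listed for 33 of the 43 members, 42 windows in all. GGGCGG was in 35 of these 42 windows (83.3%), against 46.2% of the 21263 windows of protein-coding genes and 35.7% of all 32851 windows. CCAAT was in 21 of 42 (50%, against 38.2% of protein-coding and 37.4% of all windows), CACGTG in 8 (19.0%, against 7.84% and 7.15%) and AAGGTCA in 1 (2.38%, against 4.08% and 4.72%), which was Slc25a34. The median GC content was 59.3% over member windows and 56.3% over windows of protein-coding genes. A match describes letters in the window and is not a binding site.

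Among the ADP/ATP and phosphate carriers, which serve oxidative phosphorylation, the 2 main ADP/ATP carriers differed in opposite directions. Slc25a4 (ANT1), the form that dominates in heart and skeletal muscle, was at 164 and 208 RPKM in the mock library of LSL-K4M and 4OHT and at 122 and 171 RPKM in Mll3/4SET, 1.27-fold higher (1.21 to 1.32) and 1.40-fold higher (1.33 to 1.47). Slc25a5 (ANT2), the form of dividing and many other cells, was at 111 and 58.8 RPKM and at 63.1 and 40.0 RPKM, 1.88-fold lower (1.77 to 2.00) and 1.58-fold lower (1.46 to 1.70). The ratio of Slc25a4 to Slc25a5 RPKM within a library was thereby 1.48 (1.41 to 1.56) in LSL-K4M mock and 3.53 (3.34 to 3.73) with 4OHT. In Mll3/4SET it was 1.94 (1.83 to 2.06) in mock and 4.28 (4.00 to 4.58) with 4OHT. The sum of the pair stayed within 266 to 274 RPKM in LSL-K4M and 185 to 211 RPKM in Mll3/4SET. The gene list of GRCm38.p6 holds a pseudogene named after Slc25a5, so reads may have been split or lost there and its level is uncertain. Slc25a3, the phosphate carrier, was at 194 and 146 RPKM and at 129.5 and 117 RPKM, 1.33-fold lower (1.28 to 1.38) and 1.10-fold lower (1.06 to 1.15). None of these carriers reached the 2-fold limit, and Slc25a31 (ANT4), known from testis, had 1 read in all 4 libraries together.

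The ATP-Mg/phosphate carriers, which are mostly regulated by calcium and shift the adenine nucleotide content of the matrix, also split. Slc25a23 was at 18.0 and 8.75 RPKM in the LSL-K4M pair, 2.06-fold lower by RPKM (1.87 to 2.26) and just under the limit of the log scale with -0.96, and at 6.60 and 4.46 RPKM in Mll3/4SET, 1.48-fold lower (1.28 to 1.71). Slc25a24 was at 5.23 and 7.32 RPKM and at 6.02 and 7.90 RPKM, 1.40-fold higher (1.23 to 1.60) and 1.31-fold higher (1.16 to 1.49). Slc25a23 was the more abundant of these carriers in LSL-K4M mock, and Slc25a24 in the Mll3/4SET library with 4OHT. Slc25a25 was 1.38-fold (1.22 to 1.57) and 1.57-fold lower (1.34 to 1.84), at 3.63 to 7.88 RPKM. Slc25a41 had 2 reads in Mll3/4SET mock and 0 elsewhere.

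Amino acid carriers held the measured members with the largest differences upward on the log2(RPKM + 1) scale. By RPKM ratio the weakly expressed Slc25a43, given below, lay above Slc25a12 in both lines, with wide intervals. Slc25a12 (aralar) and Slc25a13 (citrin) exchange mitochondrial aspartate for cytosolic glutamate and are the aspartate side of the malate-aspartate shuttle. Slc25a12 was at 4.55 RPKM in the mock library of LSL-K4M and 9.41 with 4OHT, and at 4.76 and 10.4 RPKM in Mll3/4SET. That is 2.07-fold higher (1.80 to 2.39) and 2.19-fold higher (1.91 to 2.51) by RPKM, and 0.91 and 0.99 on the log2(RPKM + 1) scale, just short of the limit. Slc25a13 was at 0.847 and 2.15 RPKM in the LSL-K4M pair (57 and 154 reads) and at 0.533 and 2.14 RPKM in Mll3/4SET (37 and 145 reads). Its ratios were 2.53 (1.86 to 3.50) and 4.02 (2.79 to 5.94), and in Mll3/4SET it was the 1 member called higher, at 1.04 on the log scale, a call that was lost under median-ratio and upper-quartile scaling. For both genes, both 4OHT libraries lay above both mock libraries, which also held for other members such as Slc25a4, Slc25a24 and Slc25a37. The levels of the lines were normalised separately, and the lines are not replicates of each other.

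The promoters of these aspartate/glutamate carriers, at chr2:71367706-71368005 and chr6:6217124-6217423 on the minus strand of GRCm38.p6, are shown for comparison with those of the carriers that were lower, with the same use of capitals.
Slc25a12: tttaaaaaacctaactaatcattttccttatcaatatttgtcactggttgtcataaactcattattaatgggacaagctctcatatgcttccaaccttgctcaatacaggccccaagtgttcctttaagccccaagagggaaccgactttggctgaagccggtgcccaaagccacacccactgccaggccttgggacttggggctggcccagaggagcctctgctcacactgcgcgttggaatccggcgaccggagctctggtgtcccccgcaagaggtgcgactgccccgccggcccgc
Slc25a13: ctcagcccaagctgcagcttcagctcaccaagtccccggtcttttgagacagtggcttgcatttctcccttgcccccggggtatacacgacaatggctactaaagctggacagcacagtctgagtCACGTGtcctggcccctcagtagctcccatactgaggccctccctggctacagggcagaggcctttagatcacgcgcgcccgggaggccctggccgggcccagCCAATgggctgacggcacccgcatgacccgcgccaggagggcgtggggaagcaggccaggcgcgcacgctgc
The Slc25a12 window held none of the motifs searched, at a GC content of 54.3%. The Slc25a13 window held 1 CCAAT and 1 CACGTG match at 65.0%, with no GGGCGG. Other members with ratios above 1 in both lines did have GGGCGG, Slc25a4, Slc25a14, Slc25a24 and Slc25a30 among them. The genes shown were picked by their differences, and a link between motif and direction was not tested.

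The other amino acid carriers that were measured were mostly lower with 4OHT. Slc25a22, a glutamate carrier, was at 23.4 and 12.9 RPKM in the LSL-K4M pair and at 23.7 and 12.1 RPKM in Mll3/4SET, 1.81-fold (1.66 to 1.99) and 1.96-fold lower (1.78 to 2.15). Slc25a44, which carries branched-chain amino acids into mitochondria and is known from brown fat, was at 24.9 and 12.6 RPKM and at 20.6 and 12.1 RPKM, 1.98-fold (1.83 to 2.14) and 1.71-fold lower (1.58 to 1.86). Slc25a15, the main ornithine carrier of the urea cycle, was 1.35-fold (1.18 to 1.55) and 1.31-fold lower (1.13 to 1.53). Slc25a38, a glycine carrier needed for haem synthesis, was at 4.40 and 5.85 RPKM in the LSL-K4M pair and at 5.0 and 5.08 RPKM in Mll3/4SET, 1.33-fold higher (1.08 to 1.65) in the first and with a ratio of 1.02 (0.819 to 1.26) in the second, which turned below 1 under median-ratio and upper-quartile scaling. The glutamate carrier Slc25a18, the second ornithine carrier Slc25a2 and the basic amino acid carrier Slc25a29 stayed under 1 RPKM.

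The carriers of glutathione and of pyrimidine nucleotides stayed under the 2-fold limit on the log scale, and each had a paralog that did not follow it. Slc25a39, which is needed for mitochondrial glutathione import, was at 93.5 and 50.7 RPKM and at 117 and 67.4 RPKM, 1.85-fold (1.75 to 1.95) and 1.74-fold lower (1.65 to 1.83). Its paralog Slc25a40 was at 5.20 and 5.63 RPKM in the LSL-K4M pair and at 8.01 and 10.6 RPKM in Mll3/4SET, with ratios of 1.08 (0.927 to 1.26) and 1.32 (1.17 to 1.49). Slc25a33, a pyrimidine nucleotide carrier, was at 5.90 and 2.94 RPKM and at 7.04 and 3.42 RPKM, 2.01-fold (1.61 to 2.51) and 2.06-fold lower (1.68 to 2.54) by RPKM, with log2 differences of -0.81 and -0.86. Slc25a36, another pyrimidine nucleotide carrier, was at 9.01 and 9.98 RPKM and at 11.6 and 12.1 RPKM, with ratios of 1.11 (0.992 to 1.24) and 1.05 (0.951 to 1.16), the latter below 1 under median-ratio scaling.

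The cofactor carriers described here differed by less than 2-fold. Slc25a16, linked to coenzyme A in mitochondria, was 1.67-fold (1.50 to 1.85) and 1.71-fold lower (1.53 to 1.91), and Slc25a42, a coenzyme A carrier, 1.47-fold (1.27 to 1.70) and 1.48-fold lower (1.22 to 1.80). Slc25a26, the carrier of the methyl donor S-adenosylmethionine, was at 4.42 and 3.15 RPKM and at 3.82 and 3.03 RPKM, 1.40-fold (1.12 to 1.76) and 1.26-fold lower (0.992 to 1.60). Slc25a32, linked to folate and FAD, was 1.44-fold lower (1.22 to 1.69) in LSL-K4M, and in Mll3/4SET its ratio was 1.05 (0.884 to 1.24), which turned below 1 under median-ratio scaling. Slc25a17, the peroxisomal member, was at 25.9 and 26.7 RPKM in the LSL-K4M pair, a ratio of 1.03 (0.943 to 1.13) that turned below 1 under median-ratio and upper-quartile scaling, and at 26.2 and 21.9 RPKM in Mll3/4SET, 1.20-fold lower (1.09 to 1.32).

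The iron carriers, or mitoferrins, differed in opposite directions. Slc25a28 (mitoferrin 2), the form of most tissues, was at 18.2 and 9.38 RPKM in the LSL-K4M pair and at 17.3 and 9.50 RPKM in Mll3/4SET, 1.94-fold (1.69 to 2.22) and 1.82-fold lower (1.59 to 2.10). Slc25a37 (mitoferrin 1), known from red blood cell precursors, was at 6.35 and 7.66 RPKM and at 7.46 and 8.86 RPKM, 1.21-fold (1.08 to 1.35) and 1.19-fold higher (1.07 to 1.32). In mock libraries Slc25a28 was 2.87 (2.55 to 3.22) and 2.32 times (2.08 to 2.60) the level of Slc25a37 by RPKM, and with 4OHT 1.22 (1.07 to 1.39) and 1.07 times (0.939 to 1.22).

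The carriers that resemble uncoupling proteins were low, and their values lay above those of mock. Slc25a14 was at 1.74 and 2.52 RPKM in the LSL-K4M pair and at 1.04 and 1.98 RPKM in Mll3/4SET, with ratios of 1.45 (1.03 to 2.06) and 1.91 (1.25 to 2.96). Slc25a30 had ratios of 1.13 (0.896 to 1.43) and 1.48 (1.15 to 1.90) at 2.92 to 4.33 RPKM. Slc25a27 had 44 to 87 reads a library, with ratios of 1.28 (0.852 to 1.93) and 1.40 (0.999 to 1.96). No member of this group reached 2-fold.

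Members with a debated or unknown substrate included the carrier with the largest ratio. Slc25a34 had 86 reads in LSL-K4M mock and 2 with 4OHT (1.49 and 0.0324 RPKM), and 38 reads and 1 read in Mll3/4SET (0.636 and 0.0172 RPKM). The ratio of mock to 4OHT was 45.9 (12.3 to 385) in LSL-K4M and 37.0 (6.25 to 1500) in Mll3/4SET, where the gene was under the limit of 1 RPKM. Slc25a35 was at 9.28 and 2.88 RPKM and at 4.97 and 1.41 RPKM, 3.23-fold (2.62 to 4.00) and 3.51-fold lower (2.60 to 4.81). Slc25a46, an outer membrane member linked to mitochondrial fission, was at 13.7 and 10.7 RPKM and at 14.3 and 12.7 RPKM, 1.28-fold (1.18 to 1.39) and 1.13-fold lower (1.04 to 1.22). Slc25a43 had 6 and 16 reads in the LSL-K4M libraries and 11 and 30 in those of Mll3/4SET, with ratios of 2.50 (0.929 to 7.80) and 2.80 (1.36 to 6.19). For Slc25a45 and Slc25a47, at 21 to 47 reads a library, every interval held 1.

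Pairs of carriers with related substrates, chosen after their values were seen, are set side by side in the plot of paired levels. In 4 of the pairs shown the ratio of RPKM was below 1 for the more affected gene and above 1 for its partner in both lines, namely Slc25a5 with Slc25a4, Slc25a23 with Slc25a24, Slc25a28 with Slc25a37, and Slc25a39 with Slc25a40. For Slc25a40 in LSL-K4M the interval held 1. Slc25a33 with Slc25a36 gave the same picture as deposited, with intervals that held 1 for Slc25a36 in both lines and the change of sign under scaling given above. In the aspartate/glutamate pair both genes were higher. Slc25a1 with Slc25a10 and Slc25a16 with Slc25a42 were also compared but are not drawn. In each of these pairs both genes were lower in both lines.

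**Figure D3:**
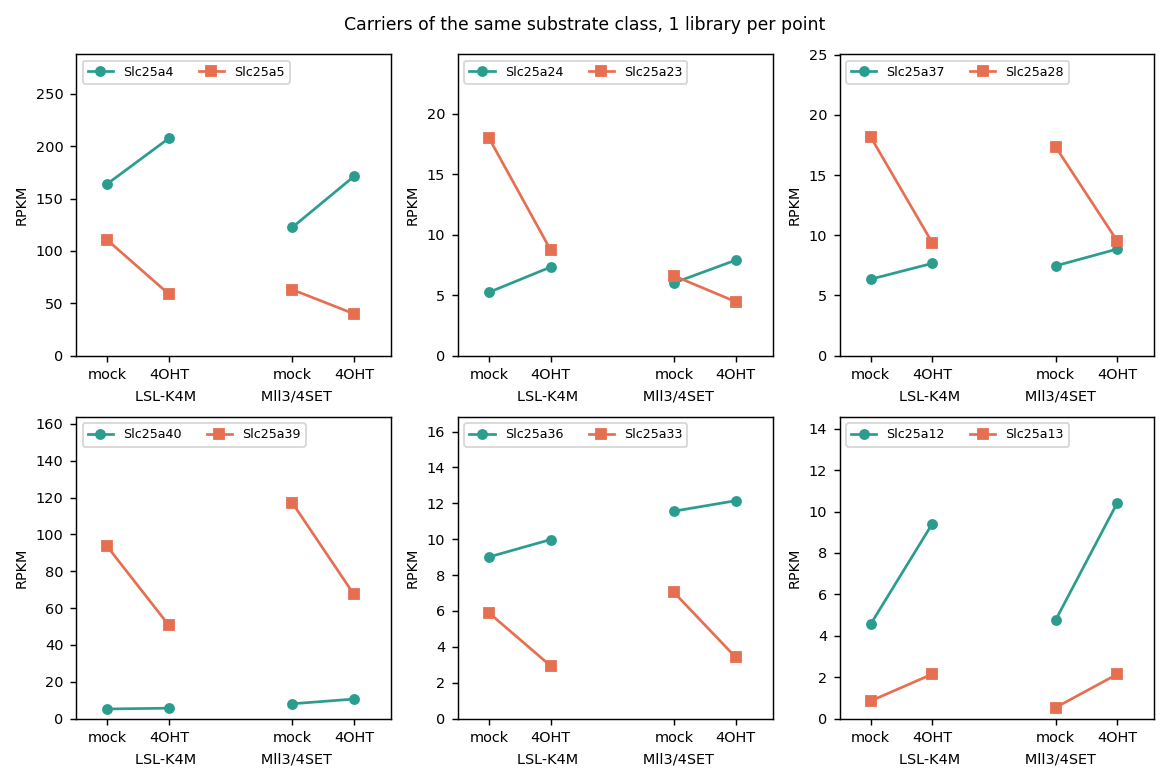
RPKM (linear axes from 0) of 6 pairs of Slc25 carriers with related substrates in mock and 4OHT libraries of LSL-K4M (left in each panel) and Mll3/4SET (right), 1 library per point, with lines joining mock to 4OHT of a line. Slc25a5, Slc25a23, Slc25a28, Slc25a39 and Slc25a33 lay lower with 4OHT in both lines while their partners lay level or higher, the small difference of Slc25a36 in Mll3/4SET turning under median-ratio scaling, and Slc25a12 and Slc25a13 were both higher.

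The 2 lines, whose comparisons share no library, gave much the same order of carriers. Of 31 members measured in both lines, 19 were below 0 in both, 10 above 0 in both and 2 had opposite signs, so 93.5% had the same sign, against 81.0% of 11830 genes measured in both. The members with opposite signs were Slc25a17 and Slc25a32, and no member had intervals off 1 in opposite directions. Of the 31 members 4 were called lower in both lines, Slc25a1, Slc25a10 and Slc25a35 among them, while 4.76% of all genes were. Across the 31 members the log2 differences of the lines had a Pearson correlation of 0.93 and a Spearman correlation of 0.93, beside 0.82 and 0.79 over all 11830 genes. These are descriptions across genes that share the libraries of a line and are not independent replicates. Over all 43 members the counting interval was below 1 in both lines for 19 and above 1 in both for 6. The directions of the intervals were not counted over all genes, and the interval narrows as reads rise. These interval counts therefore have no share of all genes beside them and describe single members, not the family. The difference had a weak negative relation to the mean level of the carrier, with Pearson correlations of -0.29 over 33 members in LSL-K4M and -0.42 over 34 in Mll3/4SET.

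**Figure D4:**
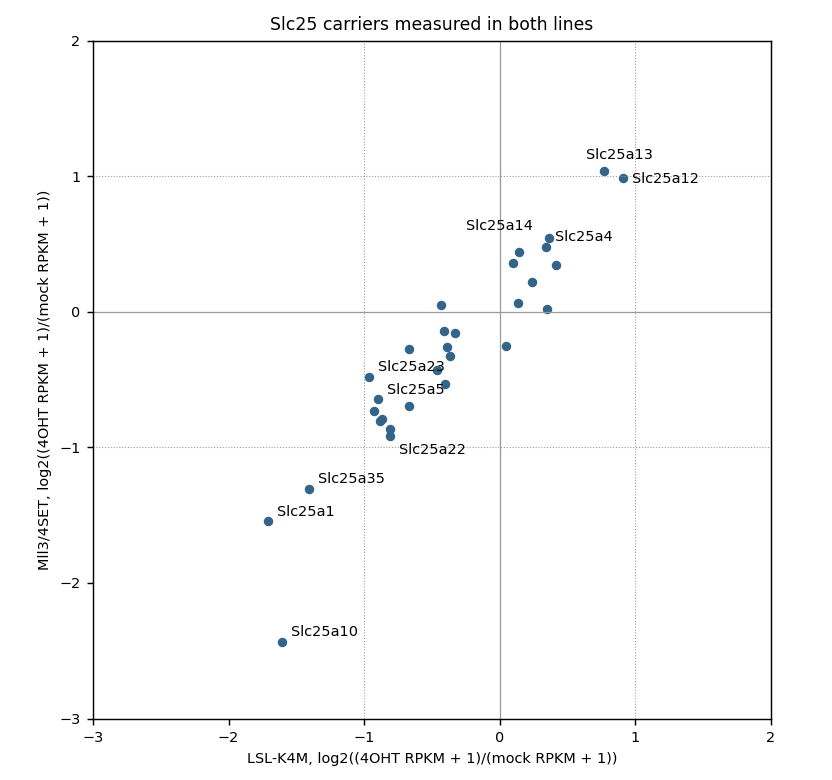
Log2((4OHT RPKM + 1)/(mock RPKM + 1)) of 30 Slc25 members measured in both lines, LSL-K4M on the x axis and Mll3/4SET on the y axis, 1 gene per point, with dotted lines at the 2-fold limit. Slc25a10 lay lowest in Mll3/4SET at -2.43 and Slc25a1 lay at -1.71 in LSL-K4M, while Slc25a13 was the member past the upper limit, in Mll3/4SET.

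The mock libraries differed from each other in some of the same carriers. These levels come from tables that were normalised separately, and the mock libraries are also those used above. Against LSL-K4M mock, 4 of 33 measured members were 2-fold or more lower in Mll3/4SET mock (12.1%, against 3.18% of all genes) and 0 were higher (against 1.82%). Slc25a1, Slc25a10 and Slc25a23 were among them, with LSL-K4M levels 3.13, 2.81 and 2.73 times those of Mll3/4SET by RPKM. Slc25a39 and Slc25a40 were on the other side, at 0.798 and 0.649 times. Some adipocyte markers differed between these mock libraries too. The sum of the 11 general markers was 6764 RPKM in LSL-K4M and 7437 in Mll3/4SET, of which Fabp4 alone made 4099 and 5119 RPKM. Of these 11 markers 6 were below 0 in Mll3/4SET mock, as were 6047 of all 12027 measured genes. The median log2 difference was -0.007 for these markers and -0.002 for all genes, so the general markers as a set were level. Called lower were 2 of them (18.2%, against 3.18% of all genes), Adipoq at 483 and 167 RPKM and Retn at 141 and 47.7 RPKM. Of 7 measured brown adipocyte markers 6 were below 0, and Cidea was called lower (14.3% of these markers, against 3.18% of all genes), at 3.86 and 0.695 RPKM. Their part in the carrier differences was not tested.

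Family members listed under other names were mostly lower with 4OHT. Ucp2, an uncoupling protein of many tissues, was at 79.4 and 22.7 RPKM in the LSL-K4M pair and at 32.1 and 5.69 RPKM in Mll3/4SET, 3.49-fold (3.33 to 3.67) and 5.64-fold lower (5.13 to 6.21). Ucp3, the form of muscle and brown fat, had 81 and 11 reads in LSL-K4M, 7.85-fold lower (4.16 to 16.4), and 57 and 0 reads in Mll3/4SET, where the exact interval began at 14.6-fold lower. Ucp1 had 127 and 3 reads and 53 and 2 reads. Mcart1 (current symbol Slc25a51), the mitochondrial NAD carrier, was at 39.6 and 19.9 RPKM and at 43.0 and 20.7 RPKM, 1.99-fold (1.89 to 2.10) and 2.08-fold lower (1.97 to 2.19). Mtch1 and Mtch2, distant members in the outer membrane, split. Mtch1 was 1.37-fold (1.30 to 1.44) and 1.82-fold higher (1.72 to 1.93), and Mtch2 1.65-fold (1.56 to 1.74) and 1.20-fold lower (1.13 to 1.27). Of 6 measured genes of this list, 3 were lower and 0 higher in LSL-K4M, 4 lower and 0 higher in Mll3/4SET, beside 6.19% lower and 5.26% higher of all genes for LSL-K4M, and 7.41% and 5.18% for Mll3/4SET. Ucp1 and Ucp3 reached 1 RPKM in the mock library alone.

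The genes that bring carriers into the inner membrane gave no call. Of 11 measured genes of the TOM70, small TIM and TIM22 route in LSL-K4M and 12 in Mll3/4SET, 0 were lower and 0 higher, against 6.19% and 5.26% of all genes for LSL-K4M, and 7.41% and 5.18% for Mll3/4SET, which is too few genes to set 0 apart from these shares. The medians of the log2 differences were -0.14 and -0.16. The farthest was Timm9, a chaperone of carriers in the intermembrane space, 1.49-fold (1.21 to 1.83) and 1.58-fold lower (1.31 to 1.92). Tomm70a, the receptor that binds carriers at the surface and was named after its values were seen, was 1.26-fold (1.19 to 1.34) and 1.17-fold lower (1.11 to 1.23).

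Other transporters of mitochondria gave 4 lower and 1 higher of 17 in LSL-K4M and 3 lower and 1 higher of 18 in Mll3/4SET. As shares these were 23.5% lower and 5.88% higher, against 6.19% and 5.26% of all genes, and 16.7% and 5.56%, against 7.41% and 5.18%, so the higher calls lay near the share of all genes. The subunits of the mitochondrial pyruvate carrier, Brp44l (Mpc1) and Brp44 (Mpc2), were lower in both lines, Brp44l from 22.1 to 5.27 RPKM and from 14.1 to 1.42 RPKM, Brp44 from 175 to 64.9 RPKM and from 51.8 to 13.8 RPKM. Sfxn1, a serine carrier, was 2.44-fold (2.29 to 2.60) and 2.94-fold lower (2.74 to 3.14), and Sfxn3 of the same family 2.24-fold (2.02 to 2.49) and 2.85-fold higher (2.61 to 3.12). Abcb8, an ABC transporter of the inner membrane, was 2.40-fold (2.13 to 2.70) and 1.71-fold lower (1.47 to 1.99). The outer membrane channels Vdac1, Vdac2 and Vdac3 stayed within 1.35-fold in both lines.

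Enzymes of the shuttles that use these carriers gave 7 lower and 1 higher of 12 in LSL-K4M and 5 lower and 0 higher of 11 in Mll3/4SET. The lower calls were 58.3% and 45.5% of the list, against 6.19% and 7.41% of all genes, and the higher call in LSL-K4M was 8.33%, against 5.26%. Acly, which splits the citrate that Slc25a1 exports, was at 871 and 199.8 RPKM and at 155 and 34.7 RPKM, 4.36-fold (4.29 to 4.43) and 4.48-fold lower (4.31 to 4.65). Gpd1, the cytosolic enzyme of the glycerol phosphate shuttle, was at 796 and 161 RPKM and at 346 and 1.86 RPKM, 4.94-fold (4.84 to 5.05) and 186-fold lower (155 to 227). Its mitochondrial partner Gpd2 was 3.82-fold (3.64 to 4.01) and 2.12-fold lower (1.96 to 2.28). Cs, which makes the citrate, was 2.67-fold (2.59 to 2.75) and 4.17-fold lower (4.00 to 4.34). Me1, which makes NADPH from malate, was 4.12-fold (3.99 to 4.25) and 9.06-fold lower (8.50 to 9.66). Of the enzymes of the malate-aspartate shuttle, Mdh1 was 2.76-fold (2.65 to 2.88) and 2.37-fold lower (2.22 to 2.53). Mdh2 and Got1 are given to complete the shuttle. Mdh2 was 2.02-fold (1.95 to 2.11) and 1.49-fold lower (1.42 to 1.56), a call in LSL-K4M only. Got1 had ratios of 1.04 (0.936 to 1.15) and 1.55 (1.43 to 1.69). Got2, the mitochondrial transaminase that makes aspartate, named after its values were seen, was at 14.4 and 17.6 RPKM and at 10.3 and 19.2 RPKM, 1.22-fold (1.10 to 1.34) and 1.87-fold higher (1.68 to 2.08). The 1 enzyme called higher was the creatine kinase gene Ckmt1 in LSL-K4M, counted at 3 reads and then 56, a ratio of 17.5 (5.69 to 87.4), and it reached 1 RPKM in the 4OHT library alone.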

How the data were processed

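Samples were grouped by line and treatment from their labels, 1 library per group; the 6 ChIP-seq and input libraries were not analysed here. Members and lists were chosen with earlier results of these data known. Per the file headers, the deposited tables give the read count and the RPKM of the mock and 4OHT library for each RefSeq transcript. Per the submitters' processing notes the build is mm9, and SICER is named; the aligner, the counter and any use of strand are not given in the sources used here, so overlapping genes cannot be told apart. The authors' deposited ratio of mock to 4OHT and a deposited column of another kind, which counts libraries at 1 RPKM or more, were not used.

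RPKM per read of 4OHT over mock was 0.938 in LSL-K4M and 1.03 in Mll3/4SET. Differences are log2((4OHT RPKM + 1)/(mock RPKM + 1)), and folds are RPKM ratios with exact conditional binomial 95% intervals (scipy 1.17.1, Python 3.11.15). Values were printed for members past 2-fold in either line, the 6 most abundant, and those on which a role group turns; other lists give the genes with the largest differences, and lists were grouped by role. RefSeq symbols of GRCm38.p6 matched all 43 members. Alternatives were pseudocounts of 0.1 and 0.001, no filter or 5 RPKM, median-ratio and upper-quartile scaling, and other choices of transcript. Members that are counted but not named are not reported here singly, and 1 further member was left out.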

Additional observations from a re-analysis of the deposited data

How the results depend on the processing

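No paired analysis was possible because the labels give no replicate numbers and each group has 1 library. A fit over both lines with the line as a block was not run, since it would take different alleles as replicates. The number of members called lower moved by over 1.5 times in LSL-K4M only. It went from 5 to 8 under median-ratio and also under upper-quartile scaling, where Slc25a5, Slc25a23 and Slc25a44 passed the limit. Of all genes in that line, 7.30% and 7.31% were then lower, against 6.19% without rescaling. The number called higher in LSL-K4M was 2 instead of 0 with pseudocounts of 0.1 and 0.001, the 2 being Slc25a12 and Slc25a13. They were 2 of 33 measured members, against 8.36% and 8.83% of all genes with these pseudocounts. In Mll3/4SET the number called higher was 3 of 34 instead of 1 with those pseudocounts, which added Slc25a12 and Slc25a43. Of all genes 8.31% and 8.89% were then higher, so the higher counts of both lines lay near or below the share of all genes. The Mll3/4SET number was 0 with a minimum of 5 RPKM, with either scaling, and when names with more than 1 transcript were left out. Of all genes 5.35% were higher with that minimum, 3.83% and 4.42% with median-ratio and upper-quartile scaling, and 5.07% without those names. Slc25a1 and Slc25a10 were called lower in both lines under all 8 alternatives, and Slc25a35 under all that kept it (a minimum of 5 RPKM leaves it out in Mll3/4SET). Median log2 differences stayed negative, from -0.51 to -0.33 in LSL-K4M and from -0.40 to -0.20 in Mll3/4SET. Of 508 values of single members under alternatives, 0 called values changed sign and 6 of the others did, all under rescaling (Slc25a17, Slc25a32, Slc25a36, Slc25a38). Members under about 50 reads are limited by counting error, and without replicates the spread between cultures is unknown.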
